A study of Mus musculus with 25 samples.

Results

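Described here are the genes Duox2, Duoxa2, Nox1, Noxo1, Nos2 and Gpx2, which make or remove reactive oxygen and nitrogen at the gut surface, on 25 Illumina bead arrays of mouse intestine. They were chosen by name, as all probes that carry these symbols in the deposited bead table. Of the 6 genes, 5 had at least 1 probe and all 5 were among the 11227 genes tested. The 5 genes had 7 of the 25697 probes, and 6 of the 7 were detected on at least 3 arrays. Duoxa2 was not analysed here, since the array held no probe under its symbol, an older symbol or its gene number.

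Female C57Bl/6 mice aged 6 to 8 weeks had been fed a gel diet for 5 days, and 2.5 cm of ileum lying 3 cm from the ileocecal valve had been resected and joined to the ileum again as a loop, either self-filling, the study's model of stasis of gut content, or self-emptying, its counterpart without stasis. Tissue was taken after 5 weeks, and the TLR4 knockout was included to ask whether this receptor takes part in the response to the self-filling loop. Wild type mice gave 4 self-emptying loops, 3 self-filling loops, 3 ilea and 3 ceca, the last 2 kinds from sham surgery, in which the abdomen was opened and the gut left alone. TLR4 knockout mice, without the receptor that senses lipopolysaccharide of bacteria, gave 3 self-emptying and 3 self-filling loops, and mice labelled IL10 knockout, for a cytokine that restrains inflammation, gave the same numbers. There was no sham tissue of either knockout. The knockouts' alleles are not given in the labels, which also leave unsaid whether replicates were separate animals. The p-values therefore reflect the spread among these samples alone, which may be technical. The tissue was whole intestine, in which fewer cells of a type and less RNA per cell cannot be told apart.

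NADPH oxidases pass electrons across a membrane to oxygen. Nox1, the catalytic oxidase of the large intestinal epithelium, makes superoxide and needs the organizer Noxo1, the activator Noxa1, the membrane partner Cyba and a Rac GTPase, whereas Duox2 releases hydrogen peroxide and is brought to the cell surface by its maturation factor Duoxa2. Nos2, the inducible nitric oxide synthase of epithelium and macrophages, makes nitric oxide from arginine with the cofactor tetrahydrobiopterin, and Gpx2, the gastrointestinal glutathione peroxidase, reduces peroxides in epithelial cells.

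On assembly GRCm38.p6 the Duox2 gene lies at chr2:122279246-122298740 and Duoxa2 at chr2:122298900-122302885, with 159 bases between them. Nox1 lies at chrX:134086421-134137711, Noxo1 at chr17:24696234-24700530, Nos2 at chr11:78920787-78960226 and Gpx2 at chr12:76792335-76795554. The positions of the probes in these genes are not given in the sources used here. RefSeq promoter windows of 300 bases, 250 before and 50 after a gene's start, were found for 5 of the 6 genes, all but Nos2. The windows of Nox1 and Gpx2 are shown because these were the members that rose over the 3 genotypes when content stood in the loop. They are the minus strand of chrX:134111805-134112104 and of chr12:76795505-76795804, and capitals mark letters that match a searched motif. The Nox1 window lies inside the annotated gene, at a start other than the most distant one.
Nox1: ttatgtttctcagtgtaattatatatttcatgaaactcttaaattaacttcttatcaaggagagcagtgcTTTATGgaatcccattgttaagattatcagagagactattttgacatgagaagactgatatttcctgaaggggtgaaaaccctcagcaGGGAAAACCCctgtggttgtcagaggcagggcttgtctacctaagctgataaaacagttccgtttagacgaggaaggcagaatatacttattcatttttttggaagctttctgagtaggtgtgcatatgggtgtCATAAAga
Gpx2: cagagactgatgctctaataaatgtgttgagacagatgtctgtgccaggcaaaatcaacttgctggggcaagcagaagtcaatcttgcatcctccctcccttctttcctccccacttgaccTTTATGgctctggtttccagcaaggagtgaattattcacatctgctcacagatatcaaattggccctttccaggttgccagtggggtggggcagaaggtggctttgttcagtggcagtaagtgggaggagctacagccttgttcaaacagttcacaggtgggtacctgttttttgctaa
Both strands were searched for 7 motifs. The letters searched for CDX factors were TTTATG and those for STAT factors were TTCNNNGAA. For GATA factors they were AGATAA, for TCF factors TTCAAAG and for the TATA box TATAAA. For the antioxidant response element they were TGACNNNGC, and for NF-kB they were GGGA, then 4 bases of any kind, then CC. TTTATG was found 180 bases before the start in Nox1 and 129 bases before it in Gpx2, and Nox1 also held it on the other strand, as CATAAA, 43 bases after the start. It was present in 11.9% of the 32851 promoter windows of the mouse. Nox1 held GGGAAAACCC, a match to the NF-kB letters, 92 bases before its start, as 20.7% of all windows hold some match. None of the 7 motifs was found in the windows of Duox2 or Noxo1, and Duoxa2 held TATAAA 30 bases before its start. These matches describe letters and are not evidence of binding.

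Each array detected between 12123 and 13627 probes, with 33 to 39 beads behind the median probe. Precision is limited by how many arrays there are. Levels are normalized intensities on a log2 scale, which can be compared between samples for 1 probe and not between genes. Differences are log2 differences ± SE from limma with Benjamini-Hochberg adjusted p over all genes tested, and a gene rose, fell or changed only where this p was under 0.05. The Tlr4 probe was detected on 13 of 13 wild type arrays and on 1 of 6 TLR4 knockout arrays, while a second Tlr4 probe was detected on none of the 25 arrays and checks nothing. The Il10 probe was detected on 0 of 13 wild type arrays and on 6 of 6 arrays labelled IL10 knockout, the reverse of a lost transcript. Neither its position in the gene nor the allele is known, so this probe does not check the label. "IL10 knockout" below therefore stands for arrays so labelled, and each direction drawn from them rests on the label. All TLR4 knockout arrays carry codes of a separate series, so genotype and code series cannot be told apart for them. The other arrays fall in 3 runs of codes, and values within these runs are given beside the results. Each such value sets 1 or 2 arrays against 1 or 2, mostly 1 against 1, and has no measure of spread. Epithelial markers were detected in every group, 9 of 9 with a probe, and the ileal list had a summed intensity of 72500 to 134000 in ileum and loops against 935 to 1750 in cecum, although Slc10a2, the ileal bile acid transporter, was detected in no group.

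**Figure D1:**
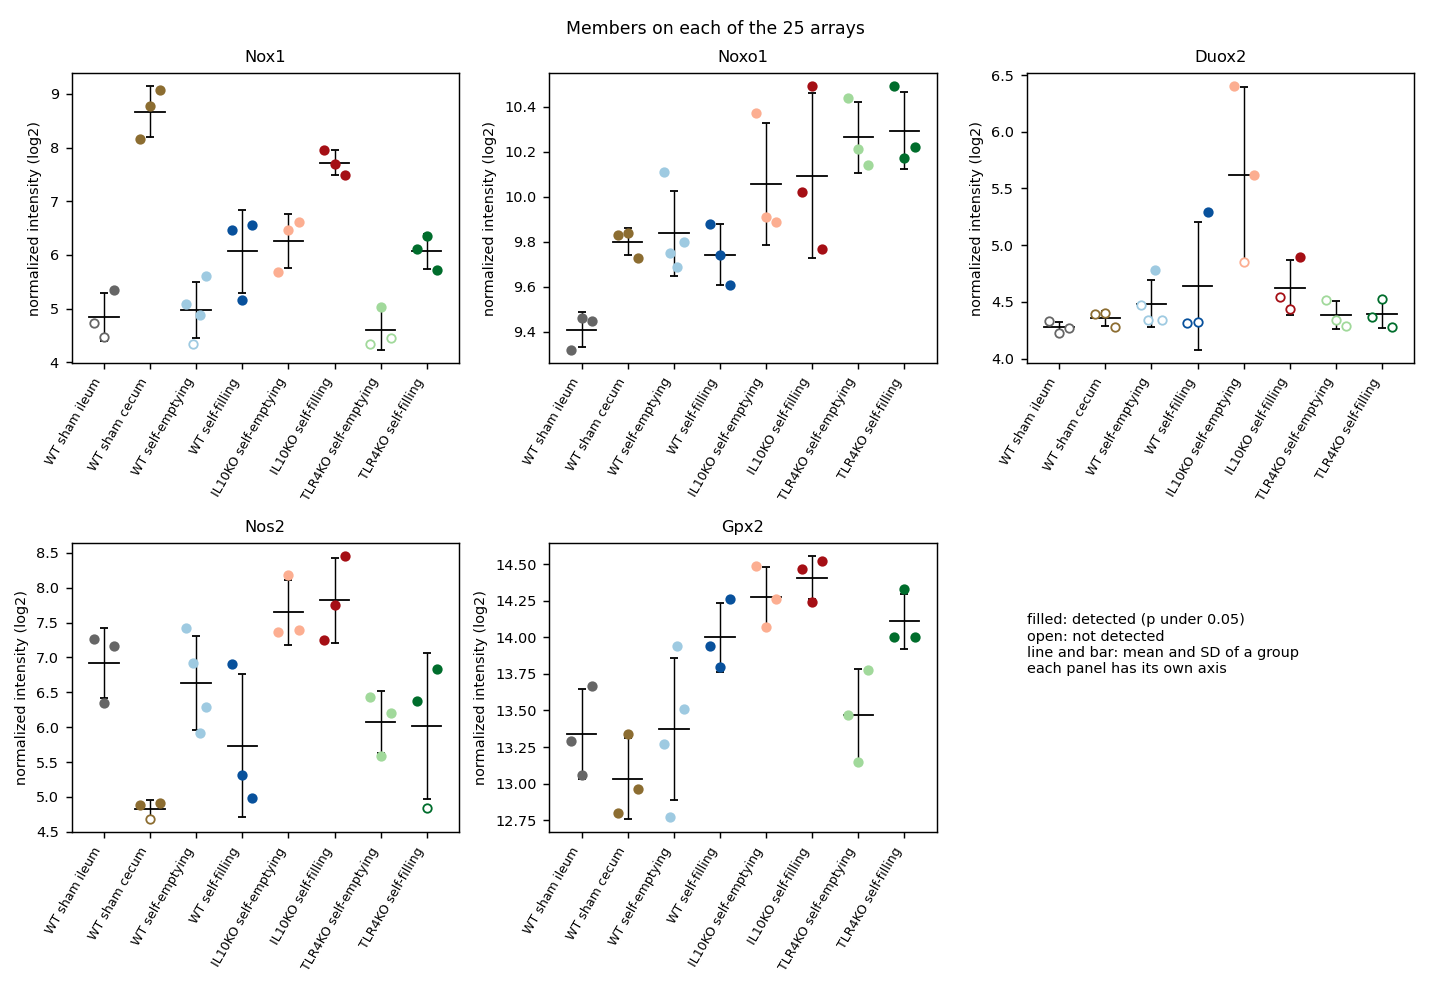
Normalized log2 intensity of the probe that stands for each gene, on each array (points) of the 8 groups, with group mean (line) and SD (bar). Filled points are detected and open points are not. Nox1 is highest in cecum, at 8.16 to 9.08, and in each genotype its mean is higher in self-filling than in self-emptying loops.

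Nox1, the catalytic subunit, had the widest range of levels of the 5 genes. In sham ileum its log2 intensity was 4.74, 4.47 and 5.34, with detection on 1 array. In sham cecum it was 8.16, 8.77 and 9.08. No ileal array reached any cecal array. The cecum was higher by 3.82 ± 0.36 (14.1-fold, adjusted p = 3.75e-08), and by 3.42, 4.29 and 3.75 within the 3 runs. Of the 5 genes tested, Nox1 rose and Nos2 fell in cecum against ileum, in a comparison where 27.8% of all genes passed. Without background correction the Nox1 difference was 2.11. Of 8 cecal markers with a probe, 4 were detected in sham ileum and 2 to 4 in each loop group, and Insl5, Atp12a and Hoxb13 were detected in none of these. Their summed intensity was 59300 to 67800 in cecum, 2440 to 2820 in sham ileum, 1570 to 4350 in wild type self-emptying loops and 4970 to 7200 in wild type self-filling loops, where 1 of the 8 rose with stasis. In IL10 knockout the sum was 4230 to 6640 in self-emptying and 2650 to 4840 in self-filling loops, and in TLR4 knockout 2160 to 3500 and 3350 to 4410. In each knockout 0 of the 8 passed with stasis. In IL10 knockout against wild type 2 of the 8 passed in self-emptying loops, where 9.55% of all genes did, and 0 in self-filling loops. In wild type self-filling loops against sham ileum 2 of the 8 passed, where 19.7% of all genes did. The mean log2 level of the list in wild type was 5.50 to 5.68 in self-emptying and 5.58 to 5.66 in self-filling loops. The part of this in the Nox1 level of the loops was not tested.

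In wild type self-emptying loops the Nox1 level was 5.08, 4.34, 4.89 and 5.61, with detection on 3 arrays, and in wild type self-filling loops it was 6.47, 5.17 and 6.56. The groups overlap through the second self-filling array, which lies among the self-emptying ones. Nox1 rose by 1.08 ± 0.34 with stasis (2.12-fold, adjusted p = 0.0428), the 1 member to pass where 11.5% of all genes did. This call was lost without self-filling array 1 (adjusted p = 0.164) or 3 (0.213), without self-emptying array 1 (0.0526), 2 (0.136) or 3 (0.0875), and in 7 of 12 other settings. Within the 2 runs that held both groups the difference was 0.74 and 0.95, and without the 2 self-emptying arrays of a run that held no wild type self-filling loop it was 0.72 (adjusted p = 0.364). Markers of several cell types moved in the same comparison. Of 9 epithelial markers 3 rose (summed intensity 57600 to 65100 against 50300 to 53600), while 3 of 6 T cell markers fell (240 to 332 against 541 to 849), as did 3 of 6 endothelial markers (278 to 394 against 403 to 757) and 2 of 6 adipocyte markers (423 to 530 against 724 to 15500). Cd4 and Cd8a, Cdh5 and Retn of these lists were undetected in both groups. Of 6 goblet cell markers 2 passed, with overlapping sums (55200 to 61300 against 52800 to 65600). The part of these cells in the wild type stasis differences given here was not tested.

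In IL10 knockout self-emptying loops Nox1 lay at 5.69, 6.46 and 6.62, and in IL10 knockout self-filling loops at 7.96, 7.70 and 7.49. The arrays of these groups did not overlap. Nox1 rose by 1.46 ± 0.36 (2.75-fold, adjusted p = 0.0273), and by 1.34, 2.02 and 1.03 within the 3 runs. In this genotype 2 members passed, where 4.12% of all genes did. Of the cell type markers, 3 of 6 for neutrophils passed (summed intensity 4670 to 16700 against 697 to 3690), with 1 of 11 for macrophages and 1 of 6 for goblet cells. The part of these cells in the Nox1 level was not tested. The Nox1 call was lost without self-filling array 1 (adjusted p = 0.146) and without self-emptying array 1 (0.133) or 2 (0.0526), with array weights (difference 1.10, adjusted p = 0.0651), with only the groups compared (0.126) and without the 2 arrays of the second run (difference 1.18, adjusted p = 0.193).

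In TLR4 knockout self-emptying loops Nox1 was 4.34, 5.04 and 4.45, with detection on 1 array, and in TLR4 knockout self-filling loops it was 6.12, 6.36 and 5.72. Every self-filling array lay above every self-emptying one. The difference of 1.46 ± 0.36 was the size of that in IL10 knockout, with an adjusted p of 0.142, and 0 members passed where 0.0802% of all genes (9) did. At an unadjusted p under 0.05, 1014 genes and 2 members, Nox1 and Gpx2, were counted.

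Averaged over the 3 genotypes, Nox1 rose by 1.33 ± 0.21 with stasis (2.52-fold, adjusted p = 0.000316). This call held in all 12 other settings and without each of the 19 loop arrays in turn, with differences of 0.59 to 1.40 and of 1.24 to 1.48. The smallest of these, 0.59, was found without background correction. The stasis difference itself did not pass as different between genotypes: it was larger by 0.38 ± 0.50 in IL10 knockout than in wild type (95% interval -0.66 to 1.41, adjusted p = 0.725) and by 0.37 ± 0.50 in TLR4 knockout (-0.66 to 1.41, adjusted p = 0.949). In these comparisons 2.36% and 0% of all genes passed, the second with 682 genes at an unadjusted p under 0.05. For the mean over genotypes, 3 of 6 neutrophil, 3 of 6 goblet cell and 2 of 6 adipocyte markers passed, where 13.4% of all genes did. So did 1 of 6 T cell, 1 of 6 endothelial and 1 of 9 epithelial markers. The part of these cells in the mean Nox1 and Gpx2 differences was not tested.

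IL10 knockout loops had more Nox1 than wild type loops of the same kind. In self-emptying loops it rose by 1.27 ± 0.34 (2.42-fold, adjusted p = 0.0223) and in self-filling loops by 1.65 ± 0.36 (3.14-fold, adjusted p = 0.00447), with no overlap of arrays in either. The second call held in all 11 other settings and without each of the 6 arrays. The first was lost without IL10 knockout array 2 (adjusted p = 0.0654) or 3 (0.105), without wild type array 2 (0.0825), without background correction (difference 0.48, adjusted p = 0.0626), with only the groups compared (0.0587) and without the 2 wild type arrays of the run named above (difference 0.91, adjusted p = 0.217). TLR4 knockout loops differed from wild type by 0.00 ± 0.36 in self-filling loops (95% interval -0.75 to 0.76) and by -0.37 ± 0.34 in self-emptying loops (-1.08 to 0.34).

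Ordered by mean, Nox1 ran from 4.61 in TLR4 knockout self-emptying loops over 4.85 in sham ileum, 4.98 in wild type self-emptying loops, 6.07 in wild type and in TLR4 knockout self-filling loops, 6.25 in IL10 knockout self-emptying loops and 7.71 in IL10 knockout self-filling loops to 8.67 in cecum. Only the last 2 steps of this order had no overlap between the arrays of neighbouring groups. Wild type self-filling loops rose above sham ileum by 1.22 ± 0.36 (adjusted p = 0.0241), where 19.7% of all genes passed, a call lost without self-filling array 1 (0.0962) or 3 (0.127) or ileum array 1 (0.0662) or 2 (0.113), without background correction (0.0716), with the signal ratio as a covariate (0.136) and with only the groups compared (0.0586). They stayed below the cecum by 2.61 on the log2 scale, with a difference of -2.61 ± 0.36 (6.09-fold, adjusted p = 9.1e-06), or -1.66 without background correction. Wild type self-emptying loops and sham ileum differed by 0.13 ± 0.34 (95% interval -0.58 to 0.84, adjusted p = 0.976). For wild type self-filling loops against ileum, markers of several cell types passed too. They included 6 of 11 for macrophages, 4 of 6 for T cells and 2 of 9 for epithelium, but 0 of 6 for neutrophils. The part of cell types in the Nox1 differences from ileum and cecum was not tested. A second Nox1 probe was detected on 0 of 25 arrays and gives no value.

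The genes whose level followed Nox1 most closely over the 25 arrays were Aqp4, a water channel (r = 0.958), Ildr1, a receptor of tricellular junctions (r = 0.936), and Trp53i11 (r = 0.930). Over the 8 group means these were 0.988, 0.97 and 0.961. The arrays share groups and normalization, and the values are a description.

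Noxo1 was detected on all 25 arrays by both of its probes, and the 2 gave different patterns over the groups. By the probe of higher mean, which stands for the gene, its log2 intensity was 9.32, 9.46 and 9.45 in sham ileum and 9.83, 9.84 and 9.73 in sham cecum. In wild type it was 10.11, 9.75, 9.69 and 9.80 in self-emptying and 9.88, 9.74 and 9.61 in self-filling loops, and these overlap. In IL10 knockout it was 10.37, 9.91 and 9.89 in self-emptying and 10.02, 10.49 and 9.77 in self-filling loops, which overlap too. In TLR4 knockout it was 10.44, 10.21 and 10.14 in self-emptying and 10.49, 10.17 and 10.22 in self-filling loops. The whole range over the 8 group means, 9.41 to 10.29, is narrow beside that of Nox1. Stasis gave -0.09 ± 0.15 in wild type (95% interval -0.41 to 0.23), 0.03 ± 0.17 in IL10 knockout (-0.31 to 0.38) and 0.03 ± 0.17 in TLR4 knockout (-0.31 to 0.37), so that on this probe shifts of more than 0.41 in either direction lie outside all 3 intervals. By the other probe the stasis difference was 0.14 ± 0.22 in wild type, -0.43 ± 0.24 in IL10 knockout and -0.18 ± 0.24 in TLR4 knockout, and none passed.

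In self-filling loops the leading Noxo1 probe rose by 0.55 ± 0.17 in TLR4 knockout against wild type (1.46-fold, adjusted p = 0.0365), the 1 member to pass where 11.3% of all genes did. The other probe gave 8.24, 7.91 and 7.94 in TLR4 knockout and 8.54, 8.90 and 8.70 in wild type self-filling loops. It therefore differed the other way, by -0.68 ± 0.24 (adjusted p = 0.0675), and neither probe's arrays overlapped between the groups. The leading probe's call was also lost without 5 of the 6 arrays (adjusted p up to 0.155), with the signal ratio as a covariate (0.217) and with only the groups compared (0.063). In self-emptying loops the leading probe differed by 0.42 ± 0.15 (adjusted p = 0.115) and the other by -0.36 ± 0.22 (adjusted p = 0.38), where 5.64% of all genes and 0 members passed. Over the 25 arrays the 2 probes correlated with r = 0.11. No direction is given for Noxo1 in TLR4 knockout for this reason.

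**Figure D2:**
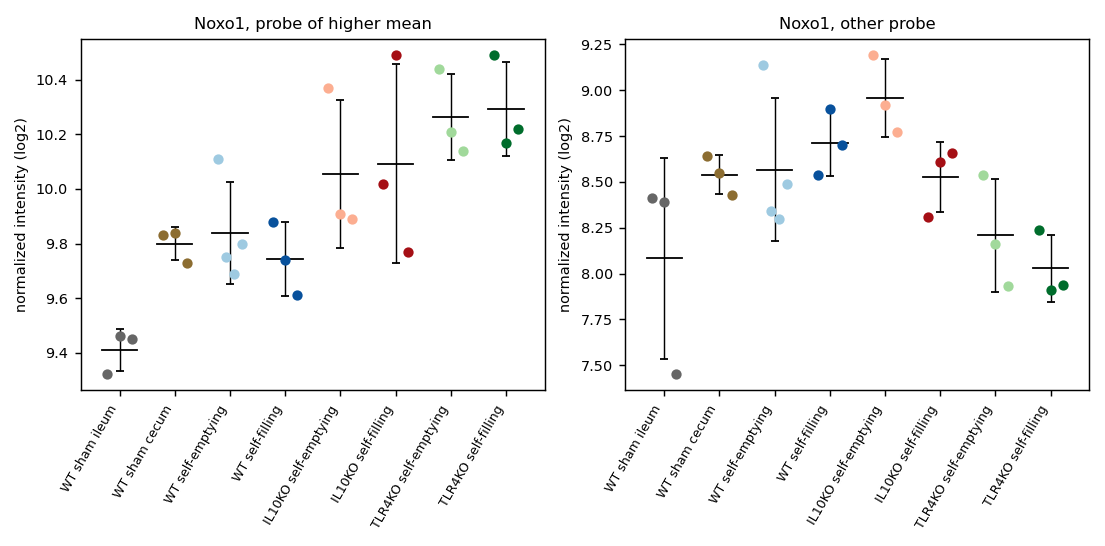
Normalized log2 intensity of the 2 Noxo1 probes on each array (points), with group mean and SD. In TLR4 knockout loops the probe of higher mean is above wild type loops (10.14 to 10.49 against 9.61 to 10.11). The other probe is below wild type in self-filling loops (7.91 to 8.24 against 8.54 to 8.90). In self-emptying loops it overlaps (7.93 to 8.54 against 8.30 to 9.14).

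The probes gave the same sign against sham ileum. In cecum they were higher by 0.39 ± 0.17 (adjusted p = 0.0861) and 0.46 ± 0.24 (adjusted p = 0.17), and in wild type self-filling loops by 0.34 ± 0.17 (adjusted p = 0.153) and 0.63 ± 0.24 (adjusted p = 0.0664), so neither passed. The leading probe's difference in cecum did pass with array weights (adjusted p = 0.0388) and with only the groups compared (0.0287). The genes most like the leading probe over the arrays were Arl14ep (r = 0.823), Zbtb17 (r = 0.797) and Ddrgk1 (r = 0.77).

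Duox2 was near background, with detection on 5 of 25 arrays. Its log2 intensity was 6.40, 4.85 and 5.62 in IL10 knockout self-emptying loops, with detection on 2. It was 4.47, 4.34, 4.78 and 4.34 in wild type self-emptying loops, 4.31, 4.32 and 5.29 in wild type self-filling loops and 4.54, 4.44 and 4.90 in IL10 knockout self-filling loops, with detection on 1 array each. On the 12 arrays of sham tissue and TLR4 knockout it ran from 4.23 to 4.53 with no detection. The signal was thus spread over single arrays, with IL10 knockout self-emptying loops alone detected on more than 1.

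In self-emptying loops Duox2 rose by 1.14 ± 0.26 in IL10 knockout against wild type (2.20-fold, adjusted p = 0.00813), with no overlap of arrays. Of the 5 genes, 3 passed in this comparison (Duox2, Nox1 and Gpx2, all higher), where 9.55% of all genes passed and 5.24% were higher. The difference was 1.15, 1.84 and 0.51 within the 3 runs. It rested on array 1 of the knockout, without which the difference was 0.75 and the adjusted p 0.0708, and with only the groups compared the adjusted p was 0.0822. Under the stricter detection limit of 0.01 Duox2 was not among the genes tested. With stasis Duox2 fell by 0.99 in IL10 knockout (-0.99 ± 0.27, adjusted p = 0.0427), although the arrays overlapped and the difference within the runs was -1.07, -1.96 and 0.05. That fall was lost without self-emptying array 1 (adjusted p = 0.219) or 3 (0.0795), without self-filling array 1 (0.181) or 2 (0.101), and without the 2 arrays of the second run (-0.51, adjusted p = 0.377). It was lost as well without background correction (-0.34, adjusted p = 0.0722), without the filter on dim probes (0.0667), with array weights (0.0736), with the replicate block (0.0542) and with only the groups compared (0.324). The stasis difference of Duox2 was 0.16 ± 0.26 in wild type (adjusted p = 0.715) and 0.01 ± 0.27 in TLR4 knockout (adjusted p = 0.997), neither of which passed, and the difference between IL10 knockout and wild type in the stasis effect did not pass (-1.15 ± 0.37, adjusted p = 0.0966). The genes most like it over the arrays were Foxn2 (r = 0.858), Tomm22 (r = 0.798) and Zbp1 (r = 0.782), correlations that lean on the few arrays with a Duox2 signal.

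Nos2 was detected on 23 of 25 arrays. In sham ileum its log2 intensity was 7.26, 6.35 and 7.16. In sham cecum it was 4.88, 4.68 and 4.91, with detection on 2 arrays, and each of these lies below each ileal array. The cecum was lower by 2.10 on the log2 scale, with a difference of -2.10 ± 0.50 (4.29-fold, adjusted p = 0.00268), and by -2.38, -1.67 and -2.26 within runs. Nos2 and Nox1 thus had opposite orders between the 2 tissues, which held in all 11 other settings for both genes, although without background correction the Nos2 difference was -0.87.

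In wild type loops Nos2 was 7.42, 6.92, 5.91 and 6.29 with self-emptying and 6.90, 5.31 and 4.99 with self-filling. Self-filling arrays 2 and 3 lie below every self-emptying array and array 1 lies among them. The difference of -0.90 ± 0.47 did not pass (95% interval -1.88 to 0.07, adjusted p = 0.209), and within the 2 shared runs it was -1.31 and -1.3. Against sham ileum, self-filling loops differed by -1.19 ± 0.50 (adjusted p = 0.0956), a difference that passed without self-filling array 1 (-1.77, adjusted p = 0.0243). The macrophage list, 13 markers of which Itgam was undetected throughout, had a summed intensity of 774 to 1450 in wild type self-filling loops, 1160 to 4230 in self-emptying loops and 2100 to 5080 in ileum, and its part in these Nos2 levels was not tested.

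IL10 knockout loops had the highest group means of Nos2, 7.65 ± 0.46 and 7.82 ± 0.61 (SD, n = 3 each), with arrays at 7.36, 8.18 and 7.40 with self-emptying and 7.25, 7.75 and 8.46 with self-filling. Wild type self-emptying array 1, at 7.42, lay among them. The 2 kinds of loop overlap, and stasis gave 0.17 ± 0.50 (95% interval -0.87 to 1.21, adjusted p = 0.887). Against wild type, Nos2 rose by 2.08 ± 0.50 in self-filling loops (4.24-fold, adjusted p = 0.00876) with no overlap of arrays. With Nox1 it was 1 of 2 members to pass, where 12.6% of all genes passed and 5.95% were higher. The difference was 1.14 and 3.47 within the 2 shared runs, and the call was lost without wild type self-filling array 3 (adjusted p = 0.0578) and with only the groups compared (0.0562). In self-emptying loops the difference of 1.01 ± 0.47 did not pass (95% interval 0.04 to 1.99, adjusted p = 0.191). The stasis effect was 1.07 ± 0.69 higher in IL10 knockout than in wild type, which did not pass either (adjusted p = 0.405).

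Neutrophil markers were higher in both kinds of IL10 knockout loop, 4 of 6 tested in each, and macrophage and T cell markers in the self-filling ones. Over 10 neutrophil markers with a probe, the summed intensity was 4670 to 16700 in IL10 knockout self-filling loops against 311 to 519 in wild type ones, and 697 to 3690 against 245 to 256 in self-emptying loops, although Cxcr2 and Mmp8 were undetected in all of these and only 7 and 6 of the 10 markers were detected in the first pair of groups and 6 and 5 in the second. The macrophage list ran from 4490 to 5390 in IL10 knockout self-filling loops, above the 774 to 1450 of wild type, and the T cell list from 907 to 1320 against 240 to 332, and 6 of 11 and 6 of 6 tested markers rose. In self-emptying loops 0 of 11 and 0 of 6 passed, with overlapping sums of 1210 to 3030 against 1160 to 4230 and of 645 to 952 against 541 to 849. None of 6 B and plasma cell markers passed in either comparison. Epithelial markers ran from 45900 to 47400 against 57600 to 65100 in self-filling loops, where 3 of 9 fell. The part of these cells in the higher Nos2 and Nox1 was not tested.

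In TLR4 knockout Nos2 was 6.44, 5.58 and 6.21 with self-emptying and 6.38, 4.84 and 6.84 with self-filling, the second of these undetected. The groups overlap and the difference was -0.06 ± 0.50 (95% interval -1.10 to 0.99). Against wild type it was 0.29 ± 0.50 in self-filling (adjusted p = 0.765) and -0.56 ± 0.47 in self-emptying loops (adjusted p = 0.544). Over the arrays Nos2 was most like Tmc5 (r = 0.851), Ptk6, an epithelial tyrosine kinase (r = 0.82), and Ccl5, a chemokine that draws T cells (r = 0.815).

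Gpx2 gave a bright signal on all 25 arrays. Its log2 intensity was 13.29, 13.06 and 13.67 in sham ileum and 12.80, 13.34 and 12.96 in sham cecum, which overlap. In wild type it was 13.27, 12.77, 13.94 and 13.51 in self-emptying and 13.94, 13.80 and 14.26 in self-filling loops. In TLR4 knockout it was 13.47, 13.15 and 13.78 in self-emptying and 14.33 on 1 array and 14 on the other 2 in self-filling loops, with no overlap. In IL10 knockout it was 14.49, 14.07 and 14.26 in self-emptying and 14.47, 14.24 and 14.52 in self-filling loops, so both kinds of loop lay where the other genotypes' self-filling loops were or above them.

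Over the 3 genotypes Gpx2 rose by 0.47 ± 0.13 with stasis (1.38-fold, adjusted p = 0.0235). With Nox1 it was 1 of 2 members to pass, where 13.4% of all genes passed and 6.39% were higher. The call was lost under cyclic loess normalization (0.32, adjusted p = 0.142), with the signal ratio of the arrays as a covariate (adjusted p = 0.0769) and, with adjusted p between 0.0511 and 0.0553, without wild type self-filling array 3, TLR4 knockout self-filling array 2 or TLR4 knockout self-emptying array 2. By genotype the difference was 0.63 ± 0.22 in wild type (adjusted p = 0.067), 0.65 ± 0.24 in TLR4 knockout (adjusted p = 0.399) and 0.14 ± 0.24 in IL10 knockout (adjusted p = 0.801), none of which passed. The smaller value of IL10 knockout did not pass as different from wild type (-0.49 ± 0.32, 95% interval -1.16 to 0.18, adjusted p = 0.422).

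In self-emptying loops Gpx2 rose by 0.90 ± 0.22 in IL10 knockout against wild type (1.87-fold, adjusted p = 0.0137), with no overlap, and by 0.99, 1.14 and 0.56 within runs. Without wild type array 2 (adjusted p = 0.0546) or IL10 knockout array 1 (0.0774), or with only the groups compared (0.0851), the call was lost. In self-filling loops the difference was 0.41 ± 0.24 (adjusted p = 0.288). Wild type self-filling loops rose above the cecum by 0.97 ± 0.24 (1.96-fold, adjusted p = 0.00285), a call lost under cyclic loess normalization (0.053) and with the signal ratio as a covariate (0.0573). Of the 5 genes, 2 passed in that comparison, Gpx2 higher and Nox1 lower, where 36.5% of all genes passed. Epithelial markers had a summed intensity of 57600 to 65100 in wild type self-filling loops against 37700 to 43000 in cecum, and 7 of 9 passed. So did 7 of 11 macrophage and 5 of 8 smooth muscle markers, but 0 of 6 each for neutrophils, T cells and adipocytes. Against sham ileum the Gpx2 difference was 0.66 ± 0.24 (adjusted p = 0.0533), with no overlap of arrays, and it passed in 4 of 11 other settings. The part of cell types in these Gpx2 differences from cecum and ileum was not tested. Gpx2 was most like Aars, which loads alanine on its transfer RNA (r = 0.901), Ssr3, a subunit of the endoplasmic reticulum translocon complex (r = 0.892), and Cox18 (r = 0.889) over the arrays.

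In wild type self-emptying loops against sham ileum 0 of 5 members passed, where 1 of 11227 genes (0.00891%) did and 883 genes had an unadjusted p under 0.05. The 5 genes did not form 1 pattern over the samples. Between pairs of them r over the 25 arrays ran from -0.18 for Nox1 and Nos2 to 0.56 for Duox2 and Gpx2.

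**Figure D3:**
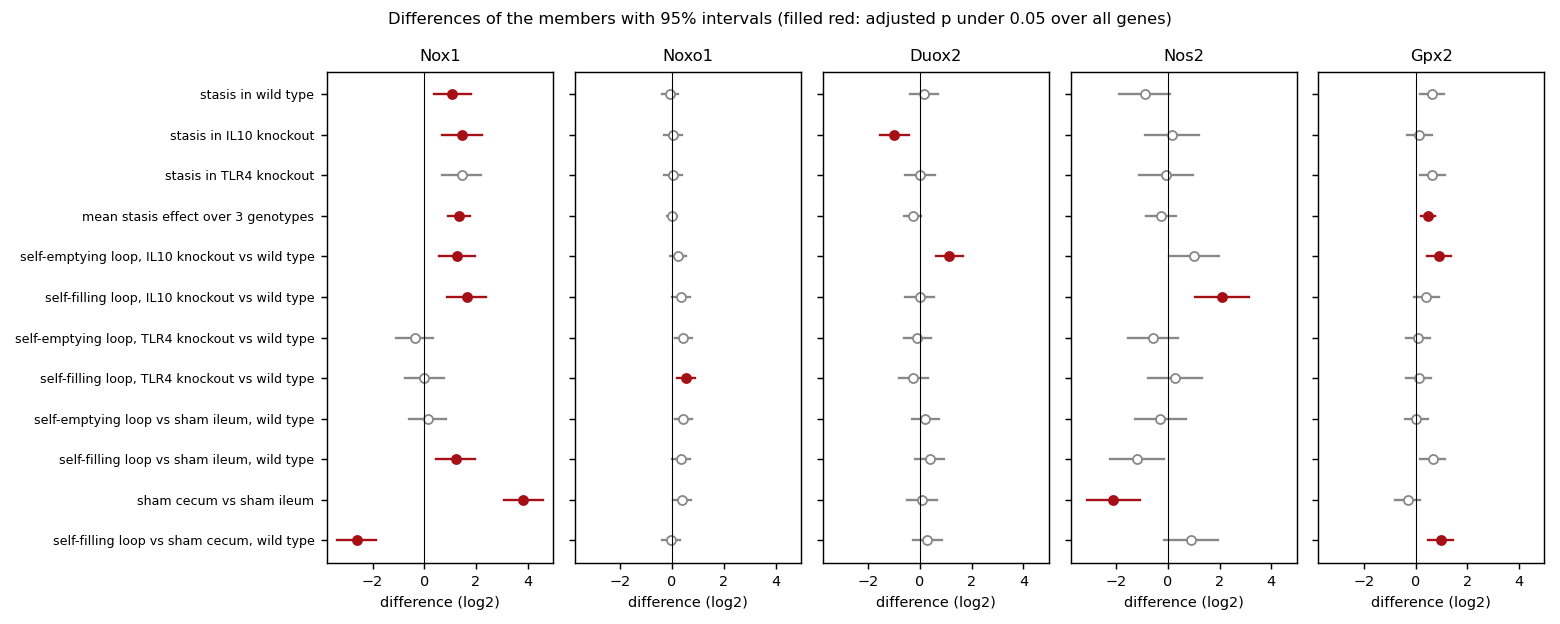
Log2 difference of each gene (points) with its 95% interval (lines) in 12 comparisons, in which the first-named group or the self-filling loop is compared with the second; red marks an adjusted p under 0.05 over all genes. Nox1 passes in 8 of the 12, including the mean stasis effect of 1.33 and cecum against ileum at 3.82. IL10 knockout stands for arrays so labelled.

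Of 15 listed partners of the oxidases, 7 were tested, and those not tested included Duox1, Duoxa1, Cybb, Lpo and Mpo. The shares of all genes that passed, against which the counts of listed genes are read, are those given above for each comparison, 13.4% for stasis over the genotypes, 11.5% in wild type, 4.12% in IL10 knockout, and in IL10 knockout against wild type 12.6% in self-filling and 9.55% in self-emptying loops. Over the 3 genotypes 1 of the 7 rose with stasis and 0 fell: Noxa1, the activator subunit of Nox1, by 0.47 ± 0.12 (adjusted p = 0.0148). It also rose in cecum against ileum (0.87 ± 0.22, adjusted p = 0.00381) and in wild type self-filling loops against ileum (0.77 ± 0.22, adjusted p = 0.0175), as Nox1 did. Its mean level was 6.30 ± 0.20 in ileum, 7.17 ± 0.07 in cecum, 6.62 ± 0.24 in wild type self-emptying and 7.07 ± 0.27 in wild type self-filling loops (SD, n = 3, or 4 for self-emptying loops). The median difference of the 7 partners was 0.07 with stasis over genotypes, against 0.01 for all genes.

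Rac2, the Rac GTPase of white blood cells, rose by 2.15 ± 0.43 with stasis in IL10 knockout (adjusted p = 0.00648), the 1 partner of 7 to pass there. In self-filling loops it rose by 3.28 ± 0.43 in IL10 knockout against wild type (9.72-fold, adjusted p = 3.17e-05), to 8.43 ± 0.17 from 5.15 ± 0.31 (SD, n = 3 each). Cyba, the membrane partner of Nox1 and of the phagocyte oxidase, rose by 0.89 ± 0.21 (adjusted p = 0.00872). The 7 partners had a median difference of 0.89 in that comparison, against -0.02 for all genes. In self-emptying loops 0 of the 7 passed in IL10 knockout against wild type, with a median of -0.01. Neutrophil markers were higher in both kinds of IL10 knockout loop, and macrophage and T cell markers in the self-filling ones alone, as given above. The part of these cells in the Rac2 and Cyba levels was not tested. Cyba also rose in TLR4 knockout against wild type self-filling loops (0.70 ± 0.21, adjusted p = 0.0397).

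Of 15 listed genes of arginine, cofactor and nitric oxide metabolism, 13 were tested. With stasis in wild type 1 rose and 1 fell. Gch1, the first enzyme of tetrahydrobiopterin synthesis, rose by 2.09 ± 0.27 (4.26-fold, adjusted p = 0.000164), and a second Gch1 probe rose by 1.46 ± 0.29 (adjusted p = 0.00551). Qdpr, which recycles the cofactor, fell by 0.57 (-0.57 ± 0.15, adjusted p = 0.0203). Over the genotypes Gch1 rose by 1.25 ± 0.16 (adjusted p = 7.08e-05), while Nos2 itself did not pass (-0.26 ± 0.28, 95% interval -0.85 to 0.33). The mean Gch1 level was 9.24 ± 0.17 in ileum, 9.44 ± 0.57 in wild type self-emptying and 11.53 ± 0.17 in wild type self-filling loops, and 10.52 ± 0.20 and 11.15 ± 0.22 in the IL10 knockout loops of these kinds (SD, n = 3, or 4 for wild type self-emptying loops). Wild type self-filling loops thus had the highest mean of Gch1 and, after cecum, the lowest of Nos2.

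Arg2, the mitochondrial arginase, which competes with Nos2 for arginine, fell by 1.31 over genotypes (-1.31 ± 0.20, adjusted p = 0.000246). With stasis in wild type alone or in TLR4 knockout alone it did not pass. The stasis difference of Arg2 in IL10 knockout minus that in wild type was -2.03, which passed. In IL10 knockout it fell by 2.76 with stasis (-2.76 ± 0.35, adjusted p = 8.84e-05), together with rises of Nosip (0.86 ± 0.24, adjusted p = 0.0477) and Asl (0.67 ± 0.17, adjusted p = 0.0323). No other probe of these 2 genes passed, with 0.56 (adjusted p = 0.114) and 0.50 (0.243) for Nosip and 0.50 (0.225) for Asl. In IL10 knockout against wild type self-filling loops Arg2 fell by 3.77 (-3.77 ± 0.35, 13.6-fold, adjusted p = 5.31e-07), where Nos2 rose, and 0 of the 13 genes rose and 3 fell. Arg2 was also lower in cecum than in ileum (-3.53 ± 0.35, adjusted p = 5.97e-08), where Nos2 was lower too and Ass1, which remakes arginine from citrulline, was higher (1.78 ± 0.22, adjusted p = 2.32e-06). The list's median difference was 0.09 with stasis over genotypes, against 0.01 for all genes.

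Of 26 listed genes of peroxide and superoxide removal, 25 were tested. With stasis in wild type 3 rose and 2 fell. Cat, the catalase of peroxisomes, fell by 1.42 (-1.42 ± 0.30, adjusted p = 0.00598) and Gpx4, which reduces lipid peroxides, by 0.48 (-0.48 ± 0.15, adjusted p = 0.0435). Thioredoxin, Txn1, rose by 0.68 ± 0.20 (adjusted p = 0.034), and its reductase Txnrd1 by 0.57 ± 0.17 (adjusted p = 0.034). Over the genotypes 1 rose and 3 fell, with Nqo1, a quinone reductase, up by 0.71 ± 0.22 (adjusted p = 0.0358) while Cat (-0.89 ± 0.18, adjusted p = 0.00292) and Gpx4 (-0.34 ± 0.09, adjusted p = 0.0199) fell in the comparison in which Gpx2 rose. These 4 of 25 genes, 16%, lie near the 13.4% of all genes. The median of the 25 genes was 0.05, against 0.01 for all genes.

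In IL10 knockout against wild type self-filling loops 1 of the 25 rose and 4 fell, 20% of the list where 12.6% of all genes passed. Gpx3, the secreted peroxidase, rose by 1.74 ± 0.45 (adjusted p = 0.0136). Gpx1, the peroxidase of most cells, fell by 0.64 (-0.64 ± 0.16, adjusted p = 0.00958), and Cat by 1.19 (-1.19 ± 0.32, adjusted p = 0.0171). In self-emptying loops, where Gpx2 rose, Cat fell by 2.18 (-2.18 ± 0.30, adjusted p = 0.000177), Gpx4 by 0.84 (-0.84 ± 0.15, adjusted p = 0.00206) and Sod1, the cytosolic superoxide dismutase, by 0.48 (-0.48 ± 0.13, adjusted p = 0.0243). Of the 25 genes 1 rose and 3 fell there.

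In TLR4 knockout against wild type self-filling loops 0 of the 25 rose and 4 fell by the leading probes. Txn1 fell by 2.16 (-2.16 ± 0.22, adjusted p = 2.67e-06) and Txnrd1 by 1.04 (-1.04 ± 0.18, adjusted p = 0.00116), and the peroxiredoxins Prdx5 (-0.79 ± 0.12, adjusted p = 0.000265) and Prdx1 (-0.43 ± 0.10, adjusted p = 0.0067) fell as well. A second Txn1 probe gave -0.19 ± 0.13 (adjusted p = 0.365), so the fall of Txn1 is a result of 1 probe. The second probes of Prdx5 (-0.45 ± 0.17, adjusted p = 0.0945) and Prdx1 (-0.27 ± 0.14, adjusted p = 0.23) did not pass. In this comparison, in which Cyba and the leading Noxo1 probe were higher, 4 of 9 epithelial markers fell (summed intensity 44000 to 48000 against 57600 to 65100). Of 8 smooth muscle markers 3 rose (34000 to 46800 against 10400 to 28600), as did 2 of 6 endothelial markers (583 to 805 against 278 to 394). Their part in these differences was not tested.

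**Figure D4:**
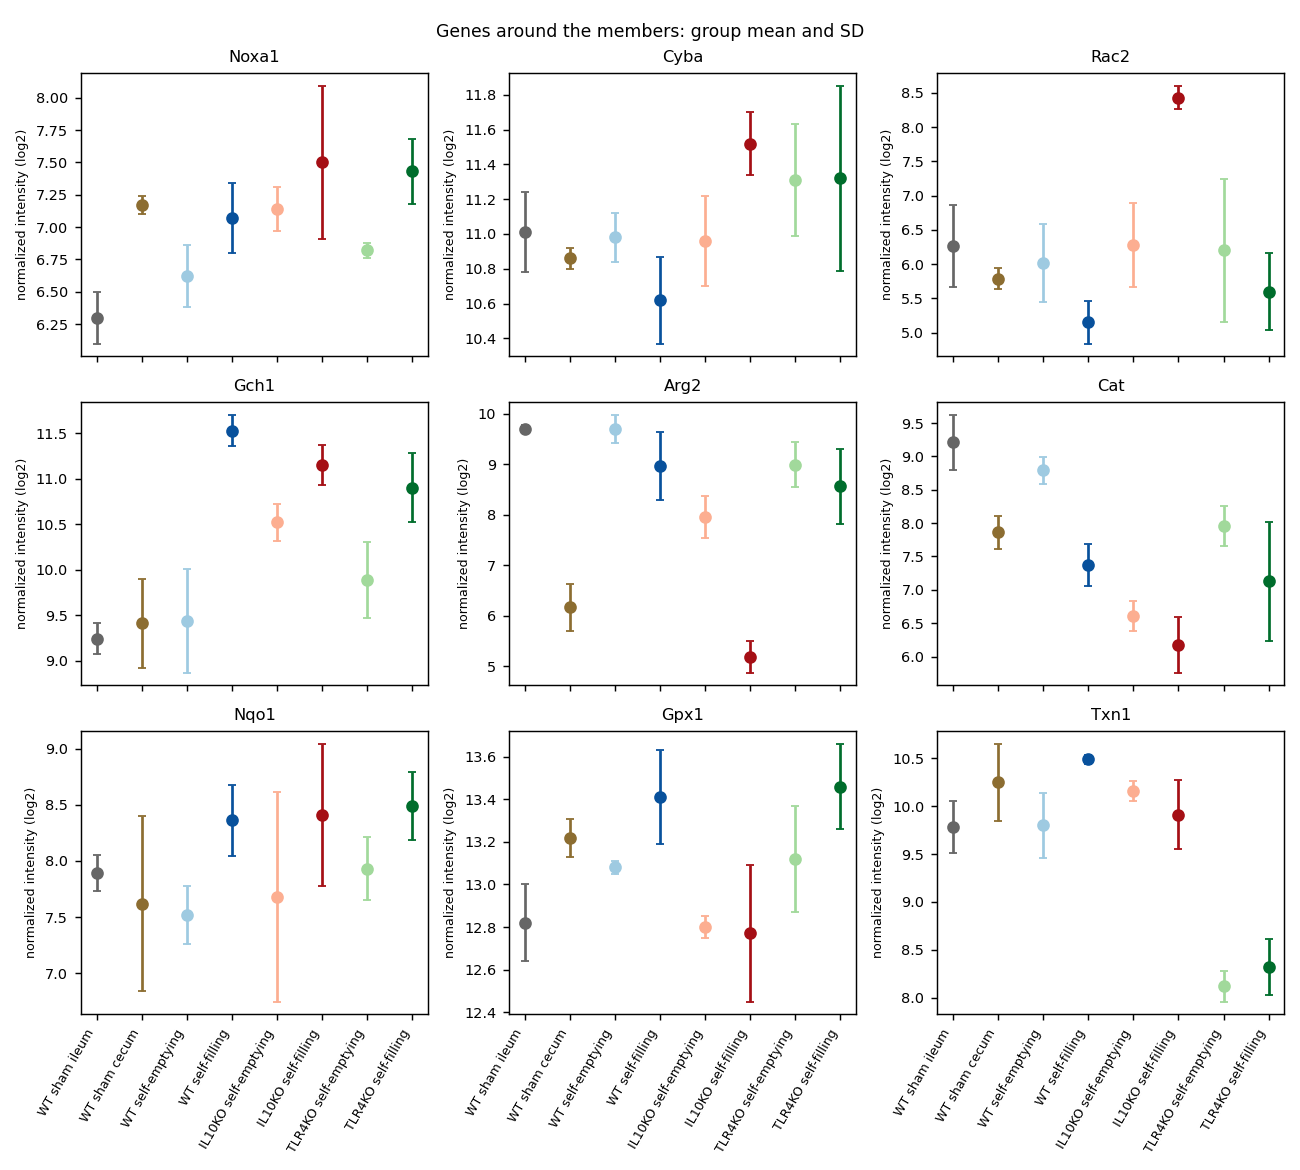
Mean and SD of the normalized log2 intensity of 9 genes of the oxidase partners, the arginine and cofactor list and the peroxide list in the 8 groups (n = 3, or 4 for wild type self-emptying loops), each on its own axis. Gch1 is highest in wild type self-filling loops (11.53) and Arg2 lowest in IL10 knockout self-filling loops (5.19). The low Txn1 of TLR4 knockout (8.12 and 8.32) was not seen by a second probe.

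Of 21 listed cytokines and factors held in textbooks to act upstream of these enzymes, 16 were tested, and Il6, Il17a, Il17f, Il22 and Tlr5 were not. With stasis in wild type 0 passed, and the nearest were Rela (-0.28 ± 0.11, adjusted p = 0.0975) and Myd88 (-0.29 ± 0.12, adjusted p = 0.115). In IL10 knockout 3 rose with stasis, among them Ifng (1.88 ± 0.19, adjusted p = 8.71e-06, detected on 3 of 3 self-filling and 1 of 3 self-emptying arrays) and Tnf (1.47 ± 0.33, adjusted p = 0.0154). In self-filling loops 9 rose in IL10 knockout against wild type and 0 fell, with a median of 0.80 against -0.02 for all genes. Ifng, a classic inducer of Nos2, was at least 3.68-fold higher (adjusted p = 5.49e-08), as it was not detected in wild type. Il1b rose by 3.37 ± 0.76 (adjusted p = 0.00528), Tnf by 2.79 ± 0.33 (adjusted p = 8.47e-06) and Tlr2, a receptor for bacterial lipopeptides, by 2.16 ± 0.19 (adjusted p = 2.71e-07). In self-emptying loops 4 rose and 1 fell, and those that rose included Il1b (2.61 ± 0.71, adjusted p = 0.0254), Tlr2 (1.39 ± 0.18, adjusted p = 9.44e-05) and Tnf (0.99 ± 0.31, adjusted p = 0.0459). Nos2 itself rose in IL10 knockout against wild type self-filling loops. It did not pass in self-emptying loops (1.01 ± 0.47) or with stasis in IL10 knockout (0.17 ± 0.50), where Ifng and Tnf rose. The part of these cytokines and factors in the levels of the members was not tested.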

How the data were processed

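Total RNA from 25 samples of mouse intestine in 8 groups had been extracted with Trizol and hybridised to Illumina bead arrays. Groups and replicate numbers follow the sample titles. The members and gene lists were chosen with earlier results of these data known.

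The intensity values were deposited by the authors as average bead signals per probe, not normalized, each with a bead count and a detection p-value, both as deposited. The sources used here do not name the software that made them. Processed log2 values of 17612 probes were deposited by the authors as well, and limma is named in the submitters' processing notes. Set against the present values, these correlated with each array at r of 0.99999 or more, with a median difference of 0.0135 and a column median of 6.02, so their scale and direction are known. The authors' filter is not.

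Signals were corrected by normexp from the detection p-values, with an offset of 16, quantile-normalized and put on a log2 scale (neqc, limma 3.58.1, statmod 1.5.0, R 4.3.3). Probes with detection p under 0.05 on at least 3 arrays were kept (15318 of 25697). A gene with several probes was represented by that of highest mean, which left 11227 genes. One model of group means over all 25 arrays was fitted by limma with 17 residual and 3.92 prior degrees of freedom, and p-values were adjusted by the Benjamini-Hochberg method over all genes. The model was tested on simulated data. With 3 arrays against 3, an exact permutation test of a single gene cannot go below p = 0.1, and none was used. Summed marker intensities are sums of normalized values on a linear scale.

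The 6 member genes are named throughout. Listed genes are named where they passed, up to 4 of largest change per list and comparison, or the 2 of smallest p where none passed, and some listed genes are not reported here. The genes most like a member are the 3 of highest Pearson correlation over the arrays. Gene names of the array's design were updated through RefSeq tables, and promoter windows are RefSeq's on GRCm38.p6. An array code in the descriptions runs in a series of 19 arrays and one of 6, grouped here in runs of 8 codes, which are not known to be slides. Deviations of same-numbered samples from their group means correlated with r from -0.244 to 0.394. With groups of 3 or 4 arrays this cannot exclude pairing, and the labels give none, so samples were treated as unpaired. Figures used matplotlib 3.10.9 and tables pandas 2.3.3 and numpy 2.4.6 under Python 3.11.15.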

Additional observations from a re-analysis of the deposited data

Results flagged for a closer look

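None of the 6 sets of values of a member probe in a group of at least 4 arrays held an array that stood apart from the others. Only wild type self-emptying loops had 4 arrays, so the arrays of the other groups were not examined in this way. None of the members passed the test of a stasis difference that depends on genotype. Among the listed genes, 6 did so for IL10 knockout against wild type, in limma's test of the difference between the 2 stasis differences. For Rac2 that difference was 3.02 ± 0.59 (adjusted p = 0.0123), with a rise of 2.15 in IL10 knockout and a value of -0.87 in wild type that did not pass. For Arg2 it was -2.03 ± 0.47 (adjusted p = 0.0273). For Ifng the fitted value was 1.97 ± 0.26 (adjusted p = 0.000883), but its probe was detected on no wild type loop array and on 1 of 3 IL10 knockout self-emptying arrays, so this size is not a measured one. For Tnf it was 1.80 ± 0.45 (adjusted p = 0.0376). For Prdx1 it was -0.52 ± 0.13 (adjusted p = 0.0377), and for Txn2, mitochondrial thioredoxin, -0.78 ± 0.17 (adjusted p = 0.0234). Neutrophil markers were highest in the IL10 knockout self-filling loops, but 0 of 6 passed in this test, where 2.36% of all genes did. Of the other lists, 2 of 11 macrophage, 1 of 6 T cell and 1 of 9 epithelial markers passed. The part of these cells in these values was not tested.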

How the results depend on the processing

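Among members, calls that held in all settings tried and without each array were Nox1 in the mean stasis effect, in IL10 knockout against wild type self-filling loops, and in both comparisons with the cecum, and Nos2 in cecum against ileum. The settings were not equal checks. A fit of all kept probes used the same normalized values, and the authors' processed values correlated with these at r of 0.99999 or more. Other counts of members past the test moved as follows, and the cause was not tested. For stasis in wild type the count of 1 became 0 without background correction, under cyclic loess, without the filter on dim probes, with runs of codes as a block, with the signal ratio as a covariate, with only the groups compared and with 2 self-emptying arrays, codes 9 to 16, left out, and 2 with array weights. For stasis in IL10 knockout the count of 2 became 1 without background correction, without the filter on dim probes, with detection p under 0.01 and with the replicate block, and 0 with array weights, with only the groups compared and without the arrays of codes 9 to 16, a setting chosen after seeing the data. With detection p under 0.01 Duox2 had too few detected arrays to be tested in any comparison, so its call there was absent and not lost. For the mean stasis effect 2 became 1 under cyclic loess and with the signal ratio, and for the difference of stasis between IL10 knockout and wild type 0 became 1 with the signal ratio. With only the groups compared, 2 became 1 in IL10 knockout against wild type self-filling loops and 3 became 0 in self-emptying loops. Of those 3, Nox1 was also lost without background correction and without the 2 wild type self-emptying arrays of codes 9 to 16. In TLR4 knockout against wild type self-filling loops 1 became 0 with the signal ratio and with only the groups compared. In self-filling loops against ileum 1 became 0 without background correction and with the signal ratio, and 2 with detection p under 0.01, array weights and the replicate block. Against cecum 2 became 1 under cyclic loess and with the signal ratio, and in cecum against ileum 2 became 3 with array weights and with only the groups compared. Leaving out 1 array at a time gave 0 to 1 members for stasis in wild type, 0 to 2 in IL10 knockout, 1 to 3 for the mean, 0 to 1 for the difference between IL10 knockout and wild type, 1 to 2 and 1 to 3 for IL10 knockout against wild type in self-filling and self-emptying loops, 0 to 1 for TLR4 knockout self-filling loops and 0 to 2 against ileum. The replicate block, which pairs arrays by a number that is not known to pair the samples, otherwise changed no member's call.

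Small differences that did not pass turned sign. Gpx2 was -0.07 for stasis in IL10 knockout under cyclic loess, and for the TLR4 difference of stasis -0.01 with runs as a block, -0.14 with array weights and -0.03 with the replicate block. Against ileum, self-emptying loops gave Gpx2 -0.04 with array weights and -0.01 with the replicate block, and Nox1 -0.08 with the replicate block. Noxo1 was -0.01 for stasis in IL10 knockout without codes 9 to 16, 0.01 with runs as a block and 0.03 with the signal ratio for the mean, and 0.08 with the signal ratio for self-filling loops against cecum. For stasis in TLR4 knockout Nos2 was 0.02 without background correction and 0.23 with array weights, and Duox2 was -0.07 with array weights. Nox1 was -0.15 with array weights for the IL10 difference of stasis. Duox2 in IL10 knockout self-filling loops was 0.02 without background correction and 0.05 under cyclic loess and with array weights, and in cecum -0.13 with the signal ratio. With 1 array left out, stasis gave Duox2 -0.17 to 0.33 in wild type and -0.06 to 0.08 in TLR4 knockout. Noxo1 ranged from -0.16 to 0.20 in IL10 knockout, -0.07 to 0.12 in TLR4 knockout and -0.07 to 0.05 in the mean, and Nos2 from -0.15 to 0.46 in IL10 knockout and -0.46 to 0.53 in TLR4 knockout. For the IL10 difference of stasis the ranges were -0.07 to 0.62 for Nox1 and -0.07 to 0.29 for Noxo1, and for the TLR4 difference -0.08 to 0.62 for Nox1, -0.17 to 0.22 for Gpx2 and -0.32 to 0.18 for Duox2. Against wild type the ranges were -0.18 to 0.32 for Duox2 in IL10 knockout self-filling loops, -0.41 to 0.08 for Duox2 and -0.12 to 0.88 for Nos2 in TLR4 knockout self-filling loops, and -0.11 to 0.28 for Gpx2 in TLR4 knockout self-emptying loops. Against ileum, self-emptying loops ranged from -0.08 to 0.37 for Nox1 and -0.16 to 0.23 for Gpx2, and against cecum, self-filling loops from -0.04 to 0.45 for Duox2 and -0.12 to 0.01 for Noxo1.

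Over the other settings the count of all genes past the test ran from 86 to 2125 for stasis in wild type, from 5 to 649 in IL10 knockout and from 0 to 19 in TLR4 knockout, from 816 to 1909 for the mean, from 16 to 827 for the IL10 difference and 0 to 7 for the TLR4 difference. It ran from 741 to 1766 and from 260 to 2034 for IL10 knockout against wild type in self-filling and self-emptying loops, from 377 to 2626 and from 170 to 853 for TLR4 knockout, from 1242 to 3610 and from 1 to 25 for self-filling and self-emptying loops against ileum, and from 2217 to 5248 for self-filling loops against cecum. Nox1 and Duox2 lay near background in several groups, which limits their differences there, and Noxo1 gave no direction shared by its probes between TLR4 knockout and wild type.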

Other observations

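Several listed genes, like Noxo1, had probes that parted in TLR4 knockout. In self-emptying loops the leading probe of Txn1 fell by 1.68 against wild type (-1.68 ± 0.20, adjusted p = 5.34e-05), where a second probe gave -0.03 (adjusted p = 0.933). The leading probe of Prdx5 fell by 0.76 (-0.76 ± 0.11, adjusted p = 0.00029), and the second gave 0.03 (adjusted p = 0.956). For Prdx1 the leading probe fell by 0.42 and the second gave 0.17 (adjusted p = 0.516). No such split of Txn1 was seen for stasis in wild type, where both probes rose, by 0.68 and 0.55.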
